A study of Homo sapiens with 6 samples.

Results

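The genes examined here encode vimentin, the neurofilament subunits and their closest relatives, the type III and type IV intermediate filament proteins. The 10 genes were chosen by name from the 60546 gene identifiers of the deposited table, namely VIM, DES, GFAP and PRPH of type III and NEFL, NEFM, NEFH, INA, NES and SYNM of type IV, when the values of this comparison, those of VIM among them, were already known from the same libraries. Their levels in the comparison below are therefore a description, no p-value is given for them, and counts of calls among them are printed with no reading. The cells were HCT-116, an established human colon carcinoma cell line that the labels class as wild type, grown in DMEM with fetal bovine serum and lysed in Trizol per the labels (the study's methods name RNAiso Plus). They carried the viral vector PMSCV with GOLPH3 (HCT-116-PMSCV-GOLPH3, 3 libraries) or without an insert (HCT-116-PMSCV-Vector, 3 libraries). Puromycin selection is named in the study's methods for the overexpressing lines, without naming the Vector line there. Per the study's methods the 3 libraries of a group came from different generations of 1 stable line, so the spread between them is not a spread between independently made lines. In the sample titles GOLPH3 replicates 1, 2 and 3 are marked P8, P12 and P13 and Vector replicates 1, 2 and 3 are marked P12, P11 and P13.

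Intermediate filament proteins form ropes in the cytoplasm that give cells their resistance to stretch. Type III proteins assemble with themselves, and vimentin is the filament of mesenchymal cells and a classical marker of epithelial-mesenchymal transition (EMT), desmin of muscle, GFAP of astrocytes and peripherin of peripheral neurons. Most type IV proteins need a partner, since NEFM and NEFH join filaments built on NEFL, and nestin and synemin join those built on vimentin or desmin. Epithelial cells such as those of the colon rely on keratins instead, and many carcinoma cells add vimentin to them.

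For 3 of these genes the bases before 1 annotated start of transcription are shown, and other starts of the same gene were not examined. The 3 genes stood for the 3 patterns found, that is a level present in 1 group (VIM), a like level in both (NES) and next to no reads in either (INA). Each run is the 250 bases upstream of the RefSeq start on GRCh38.p14, 5′ to 3′ on the strand of the gene, with capitals at every match to a GC box (GGGCGG on either strand).

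VIM, chr10:17227991-17228240, plus strand: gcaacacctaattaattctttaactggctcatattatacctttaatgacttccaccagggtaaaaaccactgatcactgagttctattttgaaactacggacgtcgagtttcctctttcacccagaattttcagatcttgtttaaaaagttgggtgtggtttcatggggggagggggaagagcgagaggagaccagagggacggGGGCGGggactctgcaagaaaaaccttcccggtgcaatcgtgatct

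NES, chr1:156677408-156677657, minus strand: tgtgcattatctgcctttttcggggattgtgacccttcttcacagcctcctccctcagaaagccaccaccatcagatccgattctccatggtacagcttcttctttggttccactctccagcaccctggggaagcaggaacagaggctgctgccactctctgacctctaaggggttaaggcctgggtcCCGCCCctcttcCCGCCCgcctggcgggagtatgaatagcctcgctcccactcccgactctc

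INA, chr10:103276888-103277137, plus strand: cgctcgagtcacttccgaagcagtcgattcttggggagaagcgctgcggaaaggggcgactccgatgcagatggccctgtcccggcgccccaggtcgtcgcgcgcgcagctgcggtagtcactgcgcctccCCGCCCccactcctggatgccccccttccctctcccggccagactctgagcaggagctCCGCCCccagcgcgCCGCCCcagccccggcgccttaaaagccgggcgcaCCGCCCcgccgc

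RefSeq promoters were matched for 5 of the 10 genes (VIM, NES, INA, PRPH and SYNM). The VIM run held 1 GC box, 46 bases before the start, and was 46.0% G or C, against a median of 58.0% over 35116 promoter windows of the same length. The NES run held 2 GC boxes and was 58.0% G or C. The INA run held 4 and was 72.8% G or C, with a CpG ratio (observed over expected) of 0.938 against a median of 0.558, while VIM had 0.613 and NES 0.404. A GC box was present in 42.6% of all windows. None of the 3 runs held a TATA box (TATAAA on either strand), which was present in 10.7% of all windows. The same was true of the CCAAT box, spelled by its own name and present in 32.0%. An E-box (CAGGTG on either strand), present in 17.5% of all windows, was also missing from the 3 runs. So was the AP-1 site (TGACTCA on either strand), present in 4.203%. The PRPH window had a TATA box 31 bases before the start, and the SYNM window had 4 GC boxes, 1 CCAAT box and 1 E-box. These are matches of letters, and the most GC-rich run of the 3 printed belonged to the gene with almost no reads.

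Depth was similar across libraries, with 15708846 to 21900764 reads recovered from the deposited values (reads scaled by a single factor per library, here called normalized reads). A count of 0 still allows up to 3 reads, or 2.47 to 3.29 normalized reads, and this limit covers counting error only. The GOLPH3 transcript itself gave 1630, 1272 and 1383 normalized reads in the GOLPH3-labelled libraries and 1968, 1892 and 1472 in the Vector-labelled ones (log2 difference -0.31, limma with Benjamini-Hochberg adjustment, adjusted p = 0.609). The transcript was thus not higher in the libraries labelled for it and gives the labels no support, so every direction below rests on the labels alone. Of 8 colon epithelial markers, EPCAM, CDH1, KRT8, KRT18, KRT19 and ELF3 were abundant in every library, whereas VIL1 and LGALS4 had at most 5.37 normalized reads in any library. Of the 8, 3 were called higher (KRT18, KRT19 and ELF3, log2 differences 1.26, 1.92 and 1.58) and 0 lower, where 0.953% of all genes tested were called higher. EPCAM, CDH1 and KRT8 had log2 differences of 1.06, 1.13 and 1.23 and were not called (limma adjusted p = 0.103, 0.0578 and 0.125). At an unadjusted limma p under 0.05 there were 6 of the 8, and DESeq2 called 5 and edgeR 3. The summed level of the list was 65697 to 138502 in the GOLPH3-labelled libraries and 30985 to 41380 in the Vector-labelled ones, and its part in the results below was not tested.

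VIM, NEFL and NEFM were all but missing from the GOLPH3-labelled libraries and were well expressed in every Vector-labelled library, while NES, SYNM, DES, PRPH, GFAP, NEFH and INA lay in overlapping ranges. Of the 10 genes, 9 passed the filter on low values, which asked for 1 normalized read in 3 or more libraries, and INA did not. NEFL and NEFM passed it only through the Vector-labelled libraries. The fit across all genes called 3 of the 9 lower at an adjusted p under 0.05 and 6 not, where 5.07% of 26536 genes tested were called and 4.12% were called lower. The groups did not overlap in the same 3 of 9, against 22.0% of all genes. The median log2 difference of the 9 was -0.22, beside 0.02 over all genes tested. Nothing is read from these counts, since the set was chosen with these values known.

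**Figure D1:**
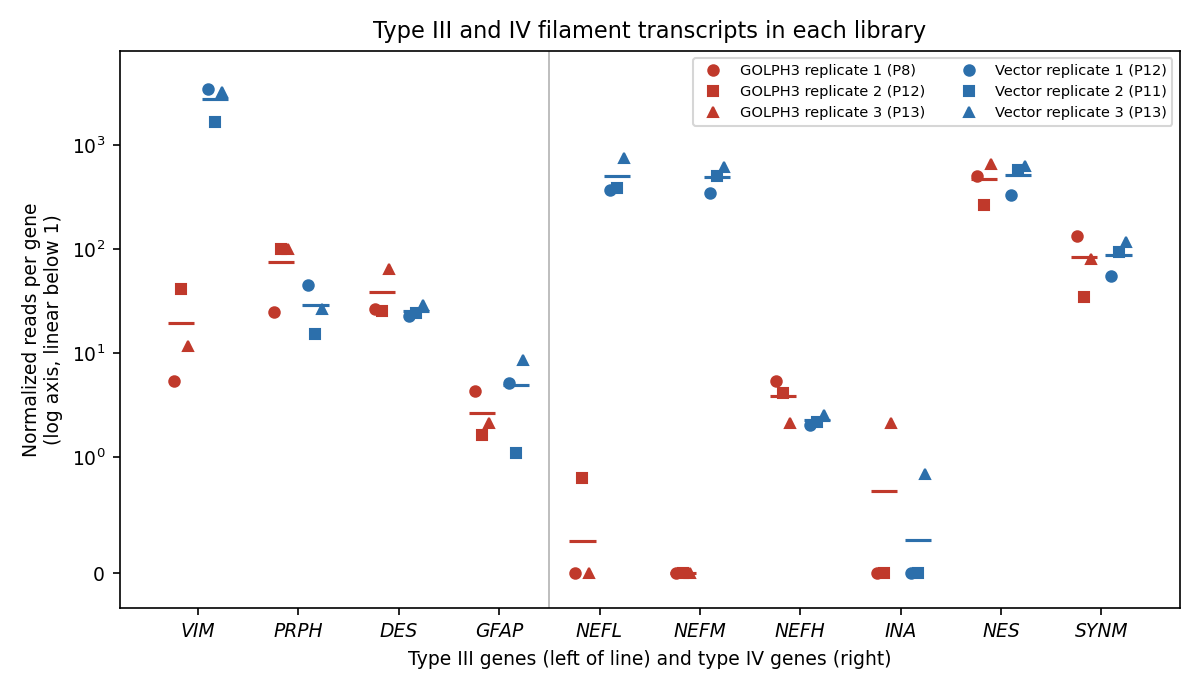
Normalized reads (log axis, linear below 1) of the 10 genes, with 1 point per library and a bar at the mean of each group of 3 (red, GOLPH3-labelled libraries; blue, Vector-labelled libraries; the P number stands beside each library's name in the key). The blue points of VIM, NEFL and NEFM stand far above the red ones, and the groups overlap in the other 7 genes.

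VIM (ENSG00000026025, chromosome 10, 17228259 to 17237593, plus strand) had 3407, 1653 and 3194 normalized reads in Vector replicates 1, 2 and 3. In GOLPH3 replicates 1, 2 and 3 it had 5.37, 41.2 and 11.7. The lowest Vector-labelled library thus stood far above the highest GOLPH3-labelled library, and the log2 difference was -7.44 (standard error 0.59). By reads summed over the group, VIM was 131-fold higher in the Vector-labelled libraries (95% exact interval 103 to 169, counting error only). GOLPH3 replicate 2 had 50 reads of VIM, with a 95% Poisson interval of 30.6 to 54.4 normalized reads. The intervals were 1.74 to 12.5 for replicate 1 (5 reads) and 5.86 to 21.0 for replicate 3 (11 reads). They cover counting error only, and over all genes the libraries of a group differed by far more than that. The level of replicate 2 was 1.50% of the mean of the Vector-labelled libraries, against 0.195% and 0.427% in replicates 1 and 3.

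NEFM (ENSG00000104722), the medium neurofilament subunit, had 346, 501 and 612 normalized reads in Vector replicates 1, 2 and 3 and no read in any GOLPH3-labelled library. With the limit of 3 reads per library put in place of 0, NEFM in the GOLPH3-labelled libraries was at least 151-fold below the mean of the Vector-labelled ones. Against the lowest Vector-labelled library it was at least 107-fold lower. NEFL (ENSG00000277586), the light subunit on which neurofilaments are built, gave 372, 383 and 742 normalized reads in the Vector-labelled libraries and 0, 0.825 and 0 in the GOLPH3-labelled ones. This was a single read in GOLPH3 replicate 2, and the ratio of summed reads was 1592 (95% exact interval 285 to 62930). NEFM and NEFL are neighbours on chromosome 8, at 24913012 to 24919098 on the plus strand and 24950955 to 24957110 on the minus strand, with 31.9 kb between them.

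The 2 neurofilament genes ran at nearly the same level as each other, with a ratio of NEFL to NEFM of 1.07, 0.766 and 1.21 in Vector replicates 1, 2 and 3. VIM did not keep a fixed ratio to them, with 9.85, 3.30 and 5.22 times the normalized reads of NEFM. Vector replicate 2, the library with the least VIM, had more NEFM than replicate 1, which had the most VIM. In GOLPH3 replicate 2 the 50 reads of VIM stood beside 0 reads of NEFM and 1 of NEFL. At the mean proportions of the Vector-labelled libraries, 50 reads of VIM would stand beside 8.83 reads of NEFM and 9.07 of NEFL. Those proportions differed between libraries, as given above, and the source of the 50 reads was not tested.

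NEFH (ENSG00000100285, chromosome 22, 29480230 to 29491390), the heavy neurofilament subunit, stayed close to the limit of 3 reads in all 6 libraries. It gave 5.37, 4.12 and 2.13 normalized reads in the GOLPH3-labelled libraries and 2.06, 2.19 and 2.57 in the Vector-labelled ones. INA (ENSG00000148798, chromosome 10, 103277163 to 103290351), which encodes α-internexin, a partner of the neurofilament subunits in central neurons, had 2 reads in GOLPH3 replicate 3, 1 read in Vector replicate 3 and none elsewhere. Thus the Vector-labelled libraries held the light and medium subunits with next to no transcript of the heavy subunit or of α-internexin.

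NES (ENSG00000132688, chromosome 1, 156668763 to 156677397), which encodes nestin, a filament protein of neural progenitors that copolymerizes with vimentin, was expressed at a like level in both groups. It gave 497, 262 and 657 normalized reads in the GOLPH3-labelled libraries and 327, 576 and 629 in the Vector-labelled ones. Its log2 difference was -0.16 (standard error 0.40), and the libraries within each group differed by more than the group means, which were 472 ± 198 and 511 ± 161 (SD, n = 3). The lowest library of each group was the one at P12.

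SYNM (ENSG00000182253, chromosome 15, 99098217 to 99135593), which encodes synemin, a large protein that links desmin and vimentin filaments to other structures, gave 134, 34.6 and 80.1 normalized reads in the GOLPH3-labelled libraries. In the Vector-labelled ones it had 55.6, 93.1 and 116, so the ranges overlapped (log2 difference -0.22, standard error 0.53). As for NES, the lowest library of each group was the one at P12.

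PRPH (ENSG00000135406, chromosome 12, 49293252 to 49298686), the peripherin gene, had 24.7, 99.8 and 100.3 normalized reads in GOLPH3 replicates 1, 2 and 3 and 45.3, 15.3 and 26.6 in Vector replicates 1, 2 and 3. GOLPH3 replicates 2 and 3 stood above all Vector-labelled libraries, and replicate 1 stood within their range. The log2 difference was 1.22 (standard error 0.63) and moved to 1.88 without GOLPH3 replicate 1. A gene annotated on the opposite strand across PRPH, AC125611.4, gave 26.8, 35.5 and 22.4 normalized reads in the GOLPH3-labelled libraries and 17.5, 24.1 and 16.3 in the Vector-labelled ones, and whether the counting used strand is not stated in the sources used here.

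DES (ENSG00000175084, chromosome 2, 219418377 to 219426739), which encodes desmin, gave 26.8, 25.6 and 64.0 normalized reads in the GOLPH3-labelled libraries and 22.6, 24.1 and 29.2 in the Vector-labelled ones. A single library, GOLPH3 replicate 3, stood above the rest, and the log2 difference of 0.48 (standard error 0.52) was 0.06 without that library. GFAP (ENSG00000131095, chromosome 17, 44903161 to 44916937) had between 1 and 10 reads in every library, with a log2 difference of -0.50 (standard error 0.73).

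**Figure D2:**
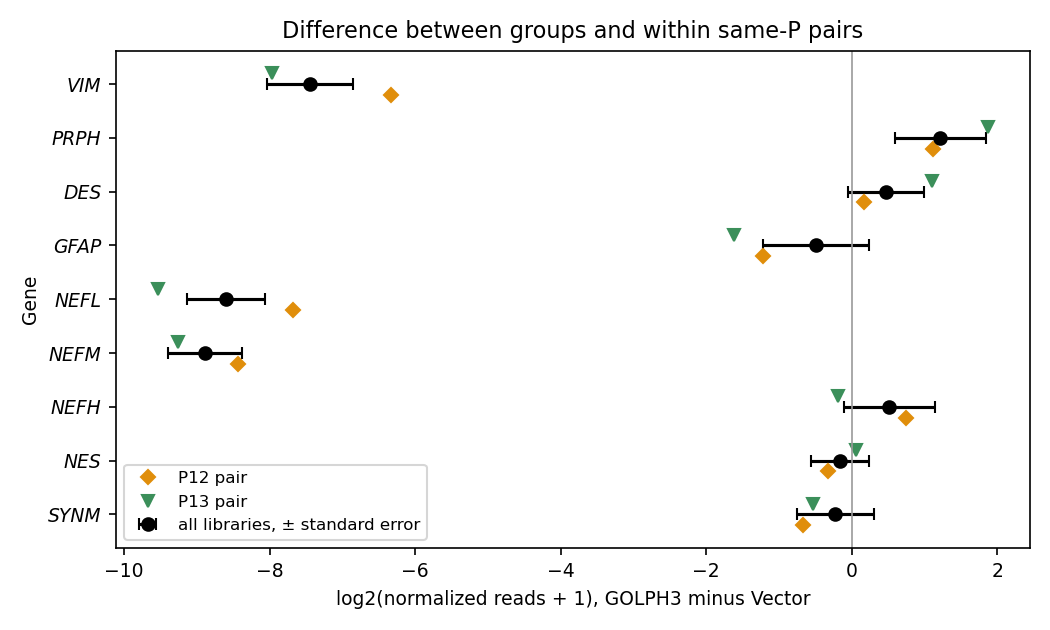
Difference in log2(normalized reads + 1), GOLPH3-labelled libraries minus Vector-labelled libraries, for the 9 genes that passed the filter (black, fit over all libraries with its standard error; orange, the pair of libraries at P12; green, the pair at P13). VIM, NEFL and NEFM lie between -6 and -10 in both pairs, and the other genes lie between -2 and 2.

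The 2 pairs of libraries that share a P number were also compared on their own. Within P12 the log2 differences were -6.33 for VIM, -7.67 for NEFL and -8.44 for NEFM, and within P13 they were -7.97, -9.54 and -9.26. PRPH had 1.12 within P12 and 1.88 within P13. DES had 0.17 and 1.11, SYNM -0.67 and -0.53, GFAP -1.21 and -1.61. NES and NEFH changed sign, with -0.32 and 0.74 within P12 and 0.06 and -0.19 within P13. These pairs are single libraries and carry no replicate error.

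Levels of different genes were compared as normalized reads per kilobase of annotated exon. This length joins all exons annotated for a gene (5158 bases for VIM, 5558 for NES and 6881 for KRT8). A gene whose transcripts use only part of it is understated, so orders, shares and ratios between genes are approximate. In the Vector-labelled libraries VIM came first with 533 ± 186 per kb (SD, n = 3), and no library of it overlapped the next gene. NEFL (115 ± 48.7), NEFM (111 ± 30.5) and NES (91.9 ± 28.99) followed with overlapping ranges, and then SYNM (11.3 ± 3.89), DES (10.3 ± 1.39) and PRPH (6.68 ± 3.48), which also overlapped from each gene to the next. NEFH, GFAP and INA were each under 1 per kb. In the GOLPH3-labelled libraries the order was led by NES with 84.9 ± 35.7 per kb (SD, n = 3), clear of the rest. PRPH (17.2 ± 10.0), DES (15.8 ± 8.87), SYNM (10.6 ± 6.37), VIM (3.77 ± 3.71) and NEFH (1.02 ± 0.431) followed, each overlapping the next. On this scale VIM ranked between 1050 and 2344 among 58367 genes in the Vector-labelled libraries and between 16489 and 23595 in the GOLPH3-labelled ones, ties included.

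The 10 genes together amounted to 912, 653 and 1078 normalized reads per kb in Vector replicates 1, 2 and 3 and to 126, 94.3 and 181 in GOLPH3 replicates 1, 2 and 3. VIM made up 72.4%, 49.1% and 57.4% of this total in the Vector-labelled libraries and 0.826%, 8.48% and 1.26% in the GOLPH3-labelled ones. Nestin transcripts made up 6.46%, 15.9% and 10.5% against 71.0%, 50.02% and 65.2%. Per kb of exon VIM stood 3.09 to 11.2 times above NES in the Vector-labelled libraries and at 0.0116 to 0.169 times NES in the GOLPH3-labelled ones. KRT8, the keratin paired with KRT18 in simple epithelia, exceeded VIM per kb in every library, 2.998- to 8.81-fold in the Vector-labelled ones and 459- to 5951-fold in the GOLPH3-labelled ones.

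**Figure D3:**
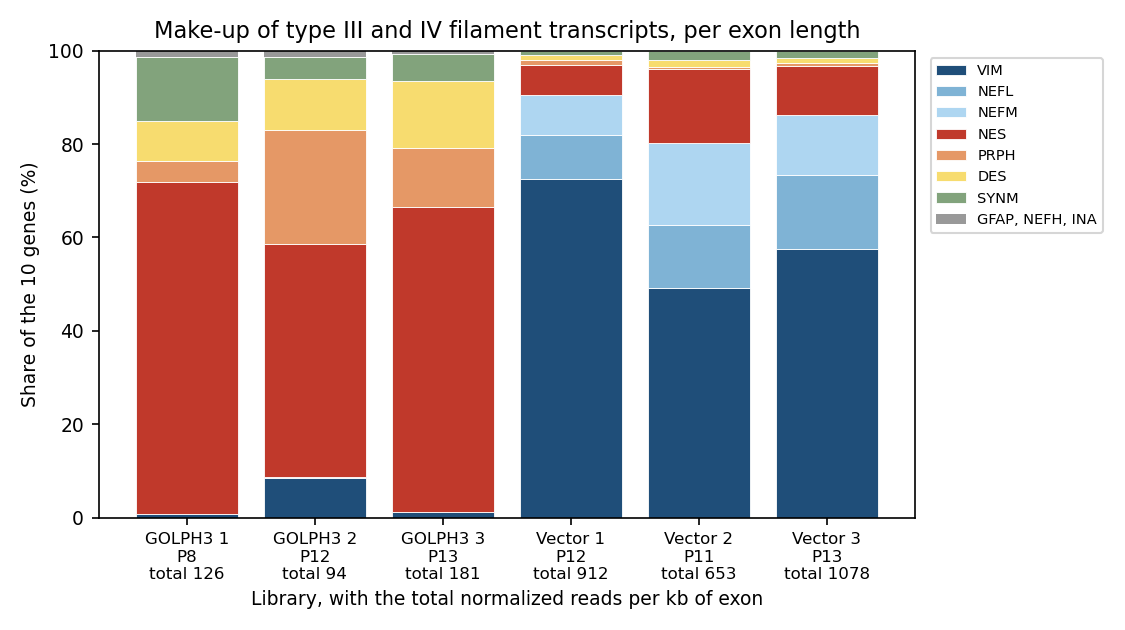
Share of each gene (percent) in the summed normalized reads per kilobase of exon of the 10 genes, 1 bar per library, with the total of the library under its bar. VIM, NEFL and NEFM fill most of the bars of the Vector-labelled libraries, and NES fills 50.02% to 71.0% of the GOLPH3-labelled ones.

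Genes that overlap these loci were examined, since unstranded counting cannot separate such reads. VIM-AS1, annotated on the strand opposite VIM and across its start (chromosome 10, 17214239 to 17229985), gave 2.15, 9.07 and 2.13 normalized reads in the GOLPH3-labelled libraries and 22.6, 10.96 and 18.9 in the Vector-labelled ones. The groups did not overlap, but the log2 difference missed the threshold (-1.94, standard error 0.67, limma adjusted p = 0.139). As for VIM, GOLPH3 replicate 2 was the highest and Vector replicate 2 the lowest library of its group. AF106564.1, antisense to the start of NEFM, had no read in the GOLPH3-labelled libraries and 24.7, 9.86 and 24.9 normalized reads in the Vector-labelled ones (limma adjusted p = 0.00136). Like NEFM it passed the filter only through the Vector-labelled libraries. Its reads fell short of edgeR's own filter on low counts, so edgeR did not test it. AC107373.2, antisense to the start of NEFL, had 0, 0 and 1.07 against 3.09, 1.096 and 1.72, at or near the limit of 3 reads.

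The genes around both loci were taken from the annotation within 500 kb, a choice made after the values of the 3 genes had been seen. Around VIM 10 of 17 genes were tested and 0 had an adjusted p under 0.05 with limma, DESeq2 or edgeR, while 2 had an unadjusted p under 0.05 (VIM-AS1 and TRDMT1). TRDMT1, an RNA methyltransferase gene and the nearest tested neighbour that does not overlap VIM, gave 203, 187 and 79.0 normalized reads in the GOLPH3-labelled libraries and 293, 387 and 207 in the Vector-labelled ones (log2 difference -0.98, limma adjusted p = 0.255). HACD1, STAM and RSU1, expressed in all libraries, had log2 differences of 0.21, -0.03 and -0.00. Around NEFM and NEFL 7 of 14 genes were tested and 1, the antisense AF106564.1, had an adjusted p under 0.05 with limma (1 with DESeq2, 2 at an unadjusted p under 0.05). With edgeR 0 were called, and AF106564.1 was not among the genes it tested. The nearest well-expressed neighbour, DOCK5, a guanine nucleotide exchange factor gene 228 kb away, had 3197, 3118 and 2396 normalized reads against 1695, 2395 and 1223 (log2 difference 0.76, limma adjusted p = 0.224), and KCTD9 had a log2 difference of -0.03.

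**Figure D4:**
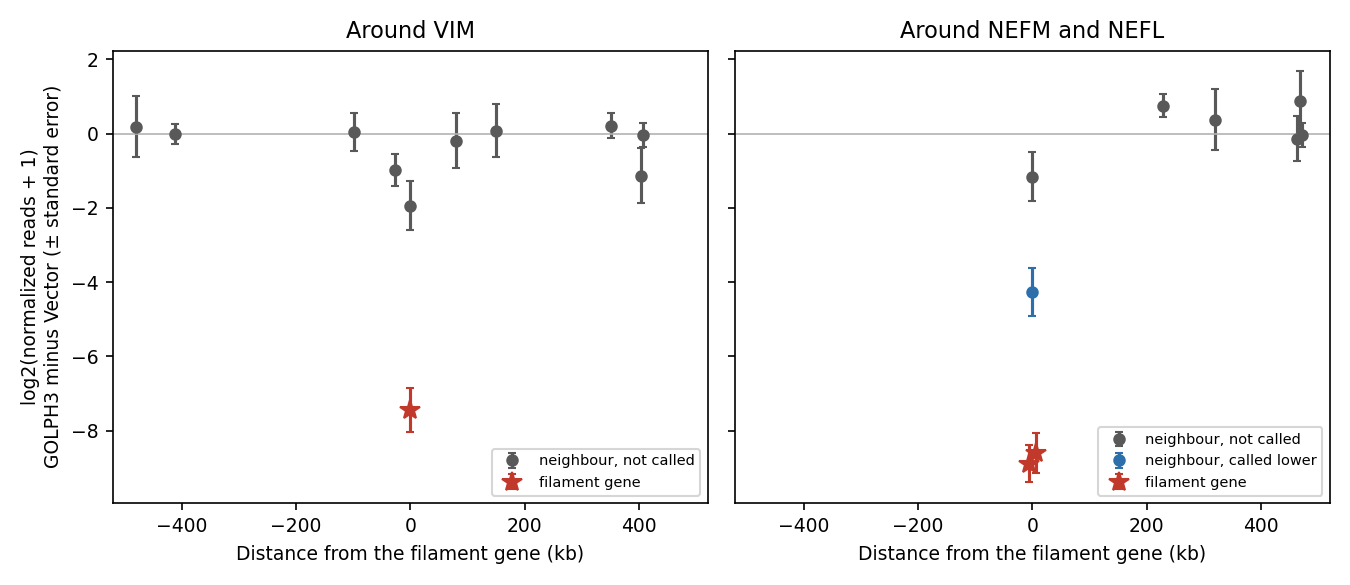
Difference in log2(normalized reads + 1), GOLPH3-labelled libraries minus Vector-labelled libraries, with its standard error, for every tested gene within 500 kb of VIM (left) and of NEFM and NEFL (right, both drawn at 0 side by side), by the distance of its nearest end. The filament genes (stars) lie below -7, and beyond the overlapping antisense genes at 0 kb all neighbours lie between -2 and 1.

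The 8 groups of cell type markers, a HEK293-like list among them, were chosen with earlier results of these data known. HEK293 is a human embryonic kidney line in common use for packaging viral vectors. Of the 6 markers in that list, 4 were called lower (IRS4, EYA1, UCHL1 and CDH2) and 2 were not (PAX2 and LHX1), where 4.12% of all genes tested were called lower. IRS4, EYA1, UCHL1 and LHX1 passed the filter only through the Vector-labelled libraries. CDH2, with 2.15, 1.65 and 0 normalized reads in the GOLPH3-labelled libraries, also needed them to pass. Nothing is read from these counts, since the list was chosen with such results known. The list had a summed level of 115 to 136 normalized reads in the GOLPH3-labelled libraries and 1847 to 7605 in the Vector-labelled ones. Almost all of the former was PAX2, with 134, 112 and 130 normalized reads against 104, 88.7 and 148 (log2 difference 0.17). IRS4, UCHL1 and LHX1 had no read in any GOLPH3-labelled library, and LHX1 had at most 3.09 normalized reads in any library. In GOLPH3 replicate 2, the library with 50 reads of VIM, IRS4 and UCHL1 had no read and EYA1 and CDH2 had 0.825 and 1.65 normalized reads. IRS4 had 1412, 1006 and 4831 normalized reads in Vector replicates 1, 2 and 3, with its highest level in replicate 3, whereas VIM was highest in replicate 1. CDH2 is also a gene of mesenchymal cells and UCHL1 of neurons. The part of such cells in these differences was not tested. In bulk RNA a smaller share of cells with a transcript and less of it per cell cannot be told apart.

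Markers of neurons, where neurofilaments belong, and of fibroblasts, where vimentin belongs, were examined next. Of 7 neuron markers 5 were tested, of which limma and edgeR called 0 and DESeq2 called 1. The 2 with an unadjusted limma p under 0.05 went opposite ways, TUBB3 higher (log2 difference 1.37, limma adjusted p = 0.229) and RBFOX3 lower (-1.74, limma adjusted p = 0.196). MAP2 and SNAP25 had log2 differences of 0.77 and 0.21, and SYP of -0.51. STMN2 and ELAVL4 had at most 1 read in any library. The summed level, which mixes these directions, was 624 to 865 in the GOLPH3-labelled libraries and 490 to 522 in the Vector-labelled ones. Of 9 fibroblast markers 6 were tested, 5 had an unadjusted limma p under 0.05, and limma and DESeq2 called 1 and edgeR 0. Over all genes tested limma called 5.07%. The 5 went opposite ways, COL1A1 and THY1 higher (log2 differences 0.91 and 1.57) and COL3A1, PDGFRA and LUM lower (-2.18, -3.19 and -1.94). The gene called by limma was PDGFRA, which had 0, 0.825 and 0 normalized reads against 5.15, 7.67 and 24.9 and passed the filter only through the Vector-labelled libraries. PDGFRA fell short of edgeR's own filter on low counts, so edgeR did not test it. DCN had no read in any library, COL1A2 and FAP had at most 2 reads, and the summed fibroblast level was 825 to 1517 in the GOLPH3-labelled libraries and 488 to 811 in the Vector-labelled ones, almost all of it COL1A1. The 3 endothelial, 4 glial and 4 muscle markers summed to at most 34.4 normalized reads in any library, and PTPRC of leukocytes to at most 1.03, and 0 of their 7 tested members were called with limma, DESeq2 or edgeR (1, SOX10, at an unadjusted p under 0.05). The part of other cell types in the levels of the 10 genes was not tested.

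The partners of intermediate filaments were examined as a list of 43 genes written by role, of which 42 were tested. Of these, 4 were higher and 1 was lower in the GOLPH3-labelled libraries, or 11.9% of those tested, where 0.953% of all genes tested were called higher and 4.12% lower. Their median log2 difference was 0.16, beside 0.02 over all genes tested. The higher genes were 3 plakins, which tie filaments to junctions and to the cornified envelope, and a calpain protease. PPL, which encodes periplakin, had 2282, 2948 and 3427 normalized reads against 968, 547 and 755 (log2 difference 1.95, standard error 0.31, limma adjusted p = 0.00194). EPPK1, which encodes epiplakin, had 889, 933 and 1220 against 267, 307 and 422 (log2 difference 1.62, standard error 0.31, limma adjusted p = 0.00713). EVPL, which encodes envoplakin, the partner of periplakin, had 1773, 1328 and 2691 against 402, 561 and 742 (log2 difference 1.75, standard error 0.34, limma adjusted p = 0.00979). In all 3 every GOLPH3-labelled library stood above every Vector-labelled library. Without Vector replicate 1 EPPK1 and EVPL lost their calls, and EVPL also without GOLPH3 replicate 3 (limma adjusted p up to 0.0784 and 0.0844).

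PLEC, which encodes plectin, the linker that binds vimentin directly, did not pass the threshold with limma. It gave 21691, 106787 and 58078 normalized reads in the GOLPH3-labelled libraries and 24871, 6700 and 17943 in the Vector-labelled ones, and the groups overlapped (log2 difference 1.83, standard error 0.58, limma adjusted p = 0.107). HSPB1, a small heat shock protein that binds filaments, had a log2 difference of 1.595 and did not pass it either (limma adjusted p = 0.0509). DST, MACF1 and DSP, the other large linkers, had log2 differences of 0.18, 0.32 and -0.17 (limma adjusted p = 0.864, 0.624 and 0.797). Of the 12 linkers and chaperones limma and edgeR called 3 each, whereas DESeq2 called 5. Over all genes DESeq2 fitted 36340, gave no adjusted p to 13393 of them and called 1991, and edgeR called 1113 of 16908. CAPN1, a calpain subunit that can cleave vimentin and desmin, had 5769, 6998 and 9092 normalized reads against 3008, 2143 and 3913 (log2 difference 1.29, standard error 0.31, limma adjusted p = 0.0339). Its call was kept in 7 of 14 alternative settings and lost without GOLPH3 replicate 2 or 3 and without Vector replicate 1 or 2, among others.

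The single lower partner was IFFO1, a little-studied filament-like protein of the nucleus. It gave 9.66, 9.07 and 7.47 normalized reads in the GOLPH3-labelled libraries and 238, 94.2 and 583 in the Vector-labelled ones (log2 difference -4.61, standard error 0.61, limma adjusted p = 0.000488), and the call was kept in 14 of 14 alternative settings. As for VIM, Vector replicate 2 was the lowest of its group. The lamin genes LMNA, LMNB1 and LMNB2, filament proteins of the nuclear lamina, had log2 differences of 1.20, -0.53 and 0.62 and did not pass the threshold (limma adjusted p = 0.0642, 0.374 and 0.418). SYNC, BFSP1 and IFFO2 had 0.70, 0.72 and 0.83 and did not pass it either (limma adjusted p = 0.526, 0.373 and 0.182), and BFSP2 was not tested. Of these 8 filament genes, IFFO1 included, limma and edgeR called 1 each, whereas DESeq2 called 2. Of 8 kinases that phosphorylate filaments 0 were called with limma, DESeq2 or edgeR (0 at an unadjusted p under 0.05). Of 6 transport genes 0 were called with limma or edgeR and 1 with DESeq2 (1 at an unadjusted p under 0.05), and KIF5C, a neuronal kinesin that carries cargo along axons, had 151, 85.8 and 106 normalized reads against 247, 317 and 263 (log2 difference -1.29, limma adjusted p = 0.0595). Of 9 turnover genes CAPN1 alone was called.

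**Figure D5:**
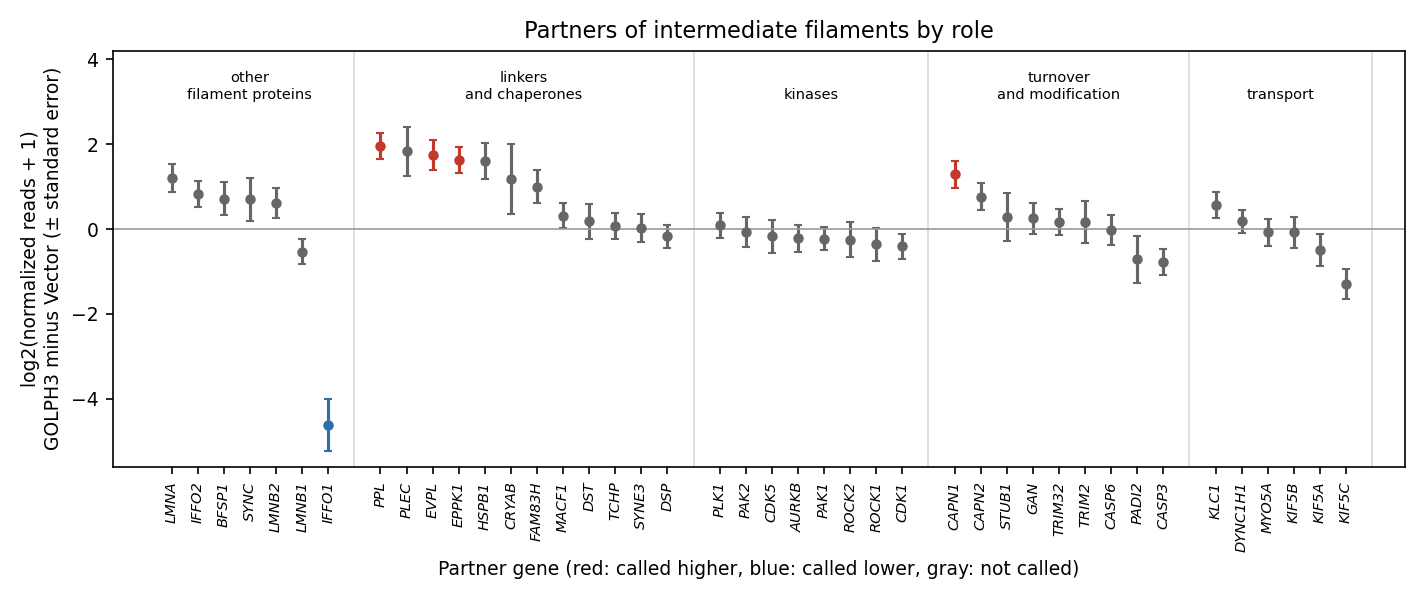
Difference in log2(normalized reads + 1), GOLPH3-labelled libraries minus Vector-labelled libraries, with its standard error, for 42 partner genes grouped by role (red, called higher; blue, called lower; gray, not called). The 3 plakins PPL, EVPL and EPPK1 and CAPN1 are red, IFFO1 is blue and lies at -4.61, and the kinases lie between -0.40 (CDK1) and 0.09 (PLK1).

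Genes with a profile like that of VIM over the 6 libraries were looked for among 12656 genes. By Euclidean distance between centered log2 profiles, over genes with a mean of at least 50 normalized reads, the nearest were GPR50 (distance 1.007), GUCY1B1 (1.05), IGF2BP1 (1.11), MPDZ (1.18) and ADCY1 (1.18). IGF2BP1, which encodes an RNA-binding protein of fetal tissues, gave 4.29, 16.5 and 11.7 normalized reads in the GOLPH3-labelled libraries and 2074, 1564 and 2975 in the Vector-labelled ones. GOLPH3 replicate 2 was the highest and Vector replicate 2 the lowest of its group. Genes picked for nearness to VIM share its order by that choice, so nothing further is read from it. NEFL lay at a distance of 2.13 from VIM and NEFM at 2.86, while NEFL and NEFM lay 0.929 apart. The nearest genes to NES, the type IV gene with the highest mean, were GRM4 (distance 0.300), PGAM1 (0.308), VCP (0.3502), PTGFRN (0.356) and ATP6V0D1 (0.374), all with overlapping groups.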

How the data were processed

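RNA-seq of 6 HCT-116 libraries was analysed from the 1 deposited table. Per the labels, the processing notes name fastp 0.20.0, HISAT2 2.1.0, featureCounts 1.6.1, Cufflinks and DESeq2 with the build GRCh38, without their roles, and the annotation and strand setting are not given in the sources used here. The deposited signal is a read count per gene scaled by a single factor per library, without length correction, since 100% of nonzero values were whole multiples of 1 step per library (tolerance 0.1 reads). How the authors set that factor is not given in the sources used here. Duplicate rows of an identifier were added (60590 rows, 60546 identifiers). Coordinates and union exon lengths came from GENCODE 29 (96.4% of identifiers matched), and promoters from RefSeq.

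limma 3.58.1 (R 4.3.3), with a mean-dependent prior, was applied to log2(value + 1) in genes reaching 1 normalized read in 3 or more libraries, with Benjamini-Hochberg adjustment over all genes. p-values measure the spread between generations of 1 line per group. Adding 1 understates the change of low genes. No 2 libraries of a group were as alike as sampling noise allows (chi-square per degree of freedom at least 74.9). Correlations of deviations from the group means were -0.23, -0.15 and 0.26 for replicates 1, 2 and 3, so replicate numbers were not taken as pairs, and 0.26 for each pair at the same P number. The highest was 0.33, for GOLPH3 replicate 1 (P8) and Vector replicate 2 (P11), so the P number is not established as a pairing either. Alternatives were quantile normalization, other filters, a pseudocount of 0.1, DESeq2 1.42.0 and edgeR 4.0.16 on the recovered reads (1991 and 1113 genes called), blocks on the replicate or P number, and leaving out each library. Scripts were tested on simulated data.

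The members and lists were chosen with earlier results of these data known. Named genes are the 10 members, GOLPH3, VIM-AS1, the called partners and the 3 of smallest p, the markers and the 5 genes nearest in profile to VIM and to NES. A few results are not reported here. Others were named after their values were seen.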

Additional observations from a re-analysis of the deposited data

Results flagged for a closer look

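NES and NEFH went in opposite directions in the 2 pairs of libraries that share a P number. The log2 difference of NES, GOLPH3 minus Vector, was -0.32 within P12 and 0.06 within P13. That of NEFH was 0.74 within P12 and -0.19 within P13, from 2 to 5 reads per library. The difference between these pairs was not tested, and each pair is 1 library against 1.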

How the results depend on the processing

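The number of genes with an adjusted p under 0.05 was 1346, and it fell to 405 when each of the 6 libraries had to reach 1 normalized read, which drops genes silent in a group, rose to 6082 with the P number as a block, which leaves 1 residual degree of freedom, and ranged from 459 (without Vector replicate 1) to 1528 (without GOLPH3 replicate 1), with 481 without Vector replicate 3 and 881 and 895 without GOLPH3 replicate 3 and Vector replicate 2. Of the 42 partners tested, 5 were called, 9 with DESeq2, 17 with the P number as a block, and 2 (without Vector replicate 1) to 9 (without GOLPH3 replicate 1) when a library was left out, with 3 without GOLPH3 replicate 3. The cause of these moves was otherwise not tested. With the replicate number as a replicate block, which pairs no libraries by design, 1081 genes and 6 partners were called.

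The VIM log2 difference kept its sign in 16 of 16 alternatives, from -8.18 without GOLPH3 replicate 2 to -6.33 within P12. NEFL and NEFM kept theirs in 12 of 12 in which they could be fitted (not without any 1 Vector replicate or with the filter on each library), and reached -11.14 and -12.21 with a pseudocount of 0.1, which sets the size for genes near 0 reads. PRPH and DES kept their sign in 16 of 16, and NES, SYNM and NEFH in 13 of 16, 14 of 16 and 14 of 15. Without GOLPH3 replicate 2 NES stood at 0.22 and SYNM at 0.29. With 0 to 10 reads per library, differences in GFAP, NEFH and INA were not detectable at this depth.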
